A study of Saccharomyces cerevisiae with 6 samples.

Results

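The genes described here build, remodel or guard the cell wall of budding yeast, and 59 of them were chosen by name from general knowledge of wall biology: structural mannoproteins, PIR proteins, glucan and chitin enzymes, cell separation proteins and the integrity signalling pathway. All 59 were found on the array by their symbol or an older alias (WSC1 is SLG1 in the RefSeq table), each with 1 probe, among 6345 features measured. The cultures were Saccharomyces cerevisiae W303-1A, a haploid MATa strain whose labels give his3-11, 15, ade2-1, ura 3-1, can1-100, trp1-1 and leu2-3, 122, in YEPD, a rich glucose medium, at 30 °C. Cells of 1 unstressed parent, harvested late in exponential growth, were put into 3 cultures at 0% and 3 at 6.5% (v/v) ethanol, and the time in ethanol is not given in the sources used here. Every culture had its own two-colour array, on which the second channel held pooled RNA from the 3 cultures at 0%, with the dyes swapped for culture 1 of each group.

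The yeast wall has an inner layer of beta-1,3-glucan with some chitin and an outer layer of mannoproteins. Most mannoproteins carry a GPI anchor and are tied to the glucan through beta-1,6-glucan, while PIR proteins are bound to beta-1,3-glucan directly. When the wall is stressed, sensors in the plasma membrane act through the small GTPase Rho1 and protein kinase C on a MAP kinase cascade that ends at the kinase Slt2 and the transcription factor Rlm1. Several wall genes are also expressed at one stage of the cell cycle, among them genes of daughter cell separation. W303 strains carry a shortened allele of SSD1, which codes for an RNA-binding protein that acts on mRNAs of wall proteins. That allele is background knowledge and is not in the labels.

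Array values are on the log2 scale (culture over pool), in the order of cultures 1, 2 and 3. A change is 6.5% minus 0% ethanol (n = 3 arrays per group) ± its SE, fitted with limma on all features with dye orientation as a term. A gene is said to have risen or fallen, or to be called, where its limma p, Benjamini-Hochberg adjusted across the 6345 features, was below 0.05. The number of arrays limits the precision. The direction rests on reading the table as red over green, the usual order, which is likely but not stated. Read so, HSP12 and HSP26, 2 stress genes, are higher in ethanol, with changes of 6.92 and 5.33, and if it were the other way round every direction below would turn. On HSP12 all 6.5% arrays read 6.64, the limit of the table, so its change is a lower bound.

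The 2 dye-swapped arrays, those of culture 1, stood apart in each group. Across features the ethanol array of culture 1 correlated at r = −0.06 and −0.10 with the 6.5% arrays of cultures 2 and 3, against 0.85 between those 2. The 0% array of culture 1 correlated at −0.39 and −0.45 with the 0% arrays of cultures 2 and 3, against 0.67 between those 2. Between the 2 swapped arrays r was 0.43. The dye term was called for 2155 of 6345 features (34.0%), and the SD over features ran from 0.63 to 1.20 between arrays. Ratios to a pool of the same strain hold no absolute level, so the strain could not be checked by its marker genes. Of 6 genes specific to a-cells 5 fell with ethanol, against 10.4% of all features. Of 2 alpha-cell genes none was called (limma, 18.1% of all features called).

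More wall genes fell than rose. Of the 59 genes 20 fell and 4 rose, and 35 were not called. This is 40.7% called, against 18.1% of all features, where 10.4% fell and 7.69% rose. The median change of the 59 genes was −0.58, against 0.04 over all features. On every 0% array the median of the 59 genes lay at 0.19 or 0.20, and on the 6.5% arrays it lay at −0.44, −0.26 and −0.25, so that the groups were apart in both dye orientations. The 0% and 6.5% arrays did not overlap for 29 of the 59 genes, against 25.3% of all features, with 24 of them lower in ethanol (40.7%, against 14.0% of all features) and 5 higher (8.47%, against 11.3%). The calls ranged in adjusted p from 0.00633 to 0.0487, and 23 of the 24 called changes were at least 2-fold. The other 35 genes lay between −1.07 and 0.91, and for 11 of them the 95% interval stayed within 1 log2 unit of 0. The plot of changes by role shows this spread.

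**Figure D1:**
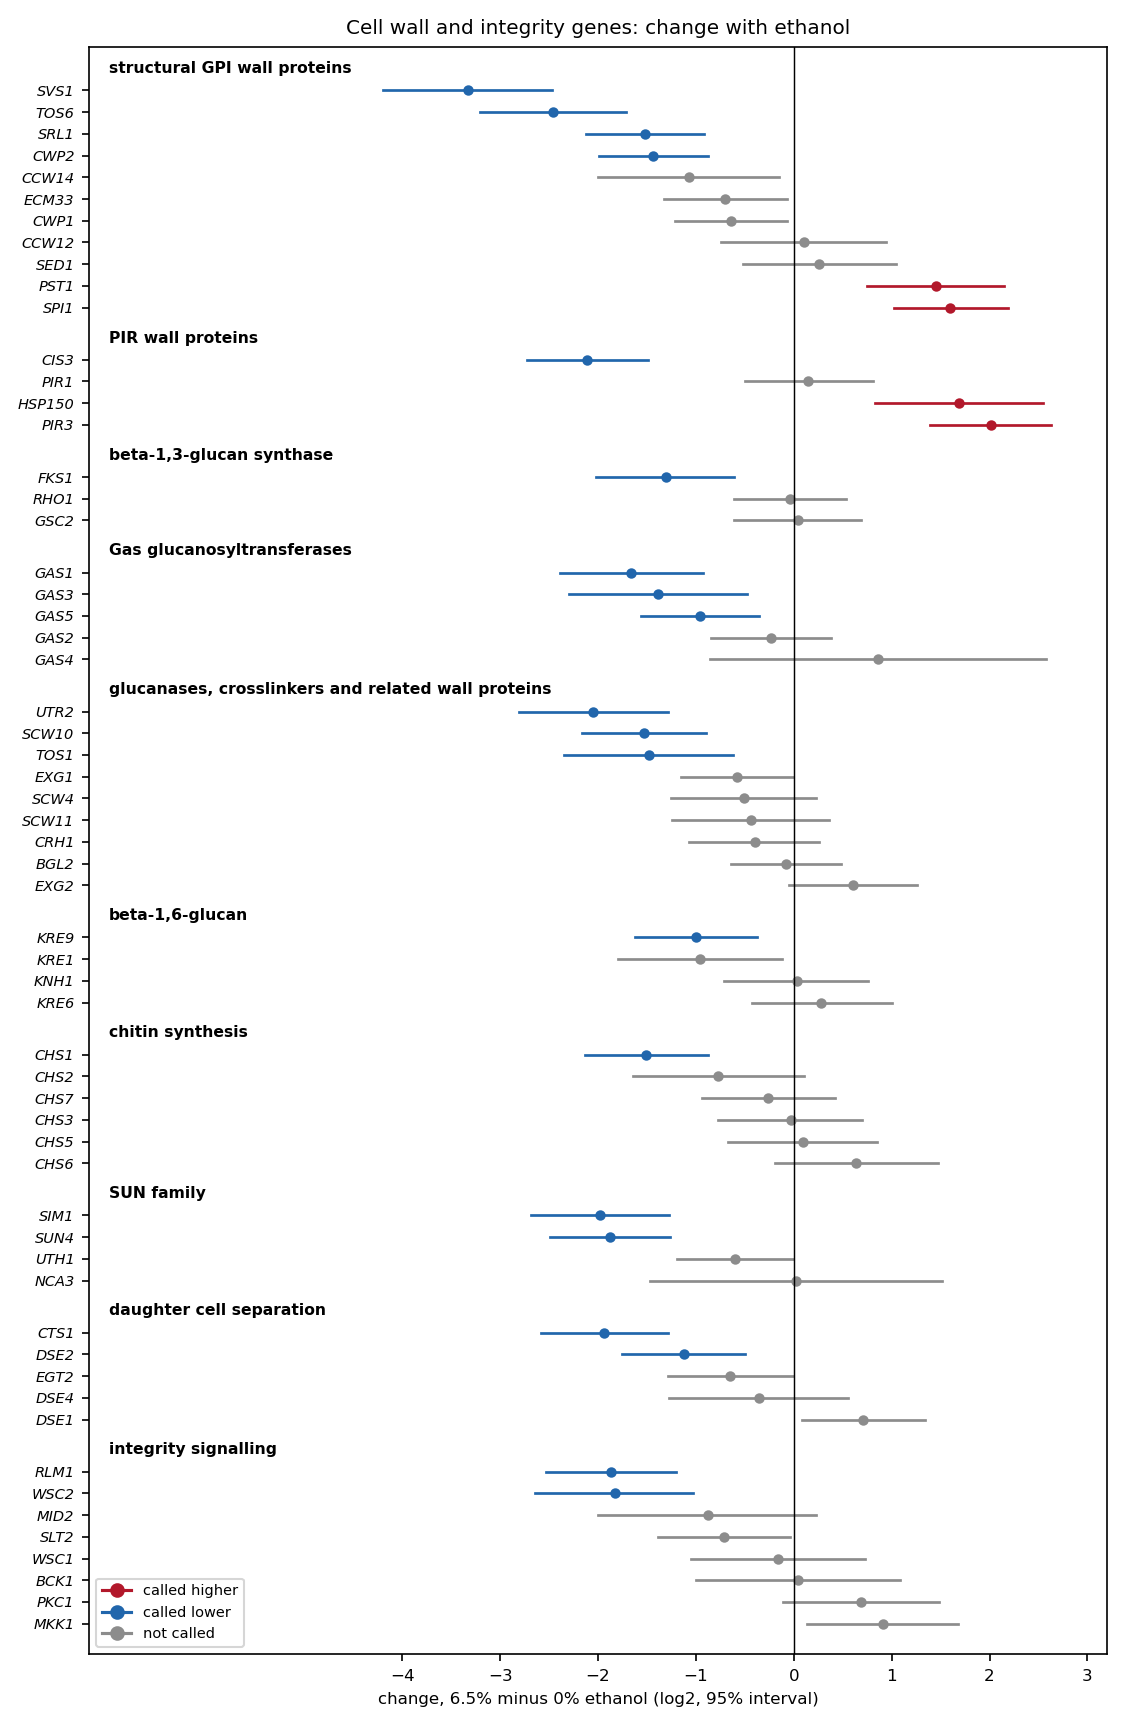
Change of each of the 59 genes (6.5% minus 0% ethanol, log2, x axis) with its 95% interval from limma, grouped by role. Blue genes were called lower (20), red genes higher (4) and grey genes were not called (35). SVS1 lies lowest at −3.33 and PIR3 highest at 2.01.

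All 24 called genes changed in the same direction in both dye orientations, that is, on the swapped arrays of culture 1 and on the 4 other arrays. So did 45 of all 59 genes and 4223 of the 6345 features. The calls were made on these same arrays, so a kept sign among called genes, here or below, adds no separate support. With the array of 6.5% culture 1 left out, which leaves the 4 arrays that were not swapped to decide the change, 23 of the 24 kept their call. GAS5 lost it, CCW14 and CHS2 gained one, and 21 genes fell and 4 rose (19.7% of all features called). Far fewer calls were made without 6.5% culture 2 or 3, in the set and over all features alike. Without culture 2 none of the 24 was called (0.0315% of all features, adjusted p from 0.0591 to 0.188), and without culture 3 only SVS1 and TOS6 were (0.804% of all features). Without 0% culture 2, 15 of the 24 kept their call (7.64% of all features), and without 0% culture 3, 17 did (11.9%). The changes themselves moved less: in all 6 fits without 1 array each of the 24 kept its sign, and the largest shift was 0.47 on the log2 scale, that of TOS1. After scaling of the arrays to equal spread 10 of the 24 lost their call (4.84% of all features called): SPI1, PST1, HSP150, FKS1, GAS1, GAS3, GAS5, TOS1, KRE9 and RLM1. The plot of changes by dye orientation shows the 59 genes on all features.

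**Figure D2:**
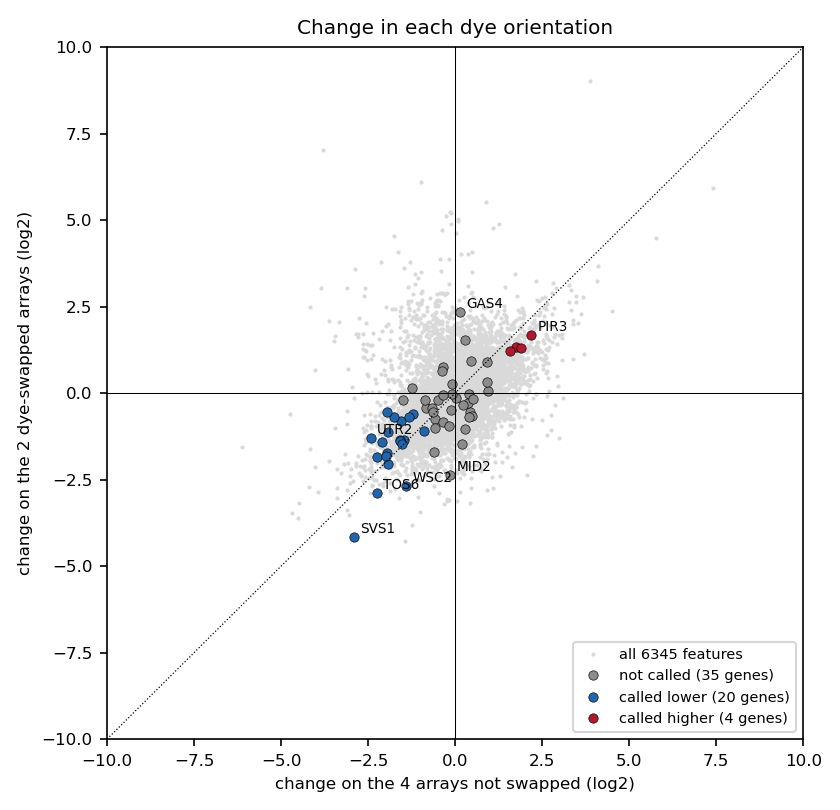
Change on the 4 arrays that were not swapped (x axis) against change on the 2 dye-swapped arrays of culture 1 (y axis), both log2, for all 6345 features (light grey) and the 59 genes (large points). The 20 genes called lower all lie in the lower left and the 4 called higher in the upper right. MID2 at −0.14 and −2.38 and GAS4 at 0.13 and 2.33 lie far from the diagonal.

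Among 11 structural wall proteins with a GPI anchor or linked to that class, 4 fell and 2 rose, with a median change of −0.70. This is 36.4% and 18.2%, against 10.4% and 7.69% of all features. SVS1, a wall protein gene of vanadate resistance, read 0.03, 2.26 and 1.62 without ethanol and −4.13, −0.78 and −1.17 with it. The groups did not overlap, but both were spread by dye orientation, with culture 1 lowest in each. SVS1 fell by 3.33 ± 0.36 on the log2 scale (95% interval −4.20 to −2.47, adjusted p = 0.00633), which ranked it 9th from the lowest of all features. Its dye term was called at 1.27 (adjusted p = 0.00603), and its change was −4.17 on the swapped and −2.92 on the other arrays.

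TOS6, a GPI protein of unknown function, read 0.42, 0.18 and 0.71 in the 0% cultures and −2.47, −2.11 and −1.49 in ethanol. All ethanol arrays lay far below all others, in both orientations. Its change was −2.46 ± 0.32, or 5.50-fold (95% interval −3.21 to −1.71, adjusted p = 0.00803). SRL1, a mannoprotein that supports wall stability, read 0.46, 1.10 and 0.95 against −0.91, −0.39 and −0.76, with a change of −1.52 ± 0.25 (adjusted p = 0.0134). CWP2, a major mannoprotein of the wall, read 0.23, 0.14 and 0.08 without ethanol and −1.14, −1.35 and −1.38 with it. It fell by 1.44 ± 0.23 on the log2 scale (adjusted p = 0.0127), with no overlap and little spread within either group.

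The structural genes that rose were SPI1 and PST1. SPI1, a GPI wall protein known for its induction by weak acids and in stationary phase, read 0.07, −0.17 and −0.05 without ethanol and 1.40, 1.68 and 1.59 with it. It rose by 1.60 ± 0.25, or 3.04-fold (adjusted p = 0.0115), and the groups were far apart. PST1, a GPI protein known to be induced by wall damage, read 0.38, −0.88 and −0.15 against 1.58, 1.17 and 0.94. It rose by 1.45 ± 0.29 (adjusted p = 0.0217), and with a trend along the probe number removed it stood at 1.05 (adjusted p = 0.0769). The other 5 structural genes were not called. CCW14, an inner-layer protein, was at −1.07 ± 0.39 (adjusted p = 0.101), with 0.27, 1.41 and 2.35 without ethanol and 0.06, 0.43 and 0.33 with it, so that culture 1 differed least. Against the pool alone CCW14 had the opposite sign, at 0.22. ECM33, which is needed for wall integrity, was at −0.70 ± 0.26 (adjusted p = 0.111), and at −1.19 with a call once the trend was removed (adjusted p = 0.0310). CWP1, the neighbour of CWP2, was at −0.64, SED1, an abundant stress-related wall protein, at 0.26, and CCW12, among the most abundant mannoproteins, at 0.10 (95% interval −0.74 to 0.94).

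The 4 PIR proteins, named for their internal repeats, did not move together. Of their genes 2 rose and 1 fell, while 7.69% of all features rose and 10.4% fell. PIR3 read −0.21, 0.40 and 0.06 without ethanol and 1.47, 2.47 and 2.36 with it, and showed a 4.04-fold rise (2.01 ± 0.26 on the log2 scale, adjusted p = 0.00803, 95% interval 1.39 to 2.63). No other of the 59 genes rose more. HSP150, a secreted heat shock glycoprotein also known as Pir2, read 0.99, −0.43 and 0.17 against 2.30, 2.26 and 1.25. Its rise was 1.69 ± 0.36 (adjusted p = 0.0252, and 0.0530 with the replicate number as a block, when 9.57% of all features were called). After scaling to equal spread it stood at 0.94 and after quantile normalization at 1.24, without a call in either. CIS3, also known as Pir4, went the other way, from 0.24, 0.34 and 0.05 to −1.61, −1.89 and −2.20. It fell by 2.11 ± 0.26 on the log2 scale, or 4.32-fold (adjusted p = 0.00783). PIR1 was at 0.15 ± 0.28 and was not called (95% interval −0.50 to 0.81), with ethanol arrays of 0.39, 0.13 and −0.16 inside the range of the others.

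**Figure D3:**
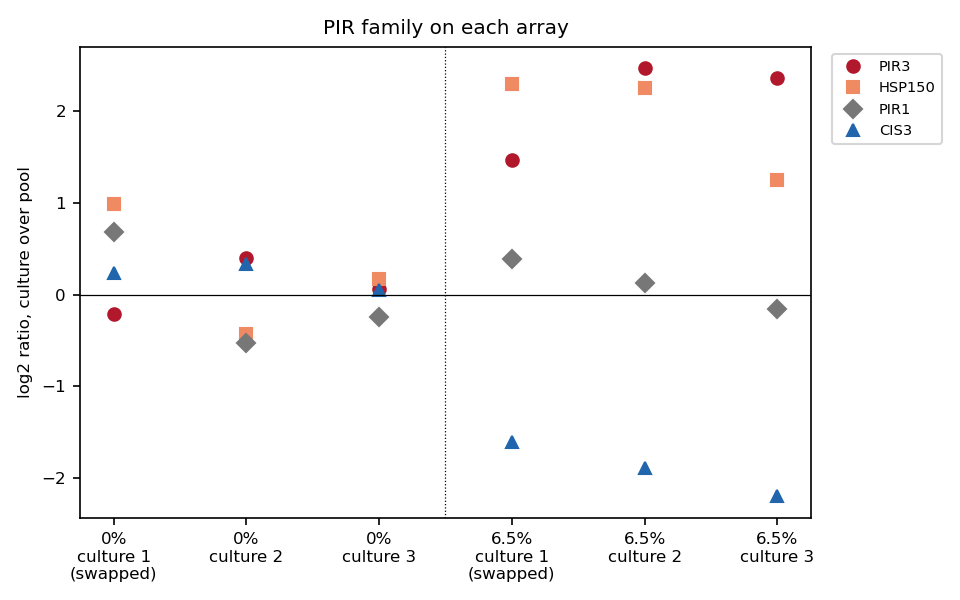
Log2 ratio of culture over pool (y axis) of the 4 PIR genes on each of the 6 arrays (x axis), 1 point per gene and array. With ethanol PIR3 and HSP150 lie between 1.25 and 2.47 and CIS3 between −1.61 and −2.20, while PIR1 stays between −0.16 and 0.39.

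PIR1 and PIR3 are direct neighbours in the genome, as are HSP150 and CIS3 and likewise CWP1 and CWP2 (RefSeq assembly R64), and the probes of each pair carry consecutive numbers. HSP150 minus CIS3 within an array was 0.75, −0.77 and 0.12 without ethanol and 3.90, 4.15 and 3.45 with it, so that neighbouring probes differed on each ethanol array. Related genes can cross-hybridise. Probe sequences were not used here, so this was not tested.

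Beta-1,3-glucan is made by a synthase with the alternative catalytic subunits Fks1 and Gsc2 and the regulatory subunit Rho1. FKS1, the subunit used in growing cells, read 0.14, 0.82 and 0.26 without ethanol and −0.67, −0.98 and −1.07 with it, without overlap. It fell by 1.31 ± 0.30 on the log2 scale, or 2.49-fold (adjusted p = 0.0283). The adjusted p was 0.0571 with the replicate block and 0.0647 without the probe-order trend. GSC2, the subunit known for its induction by stress and in sporulation, was at 0.04 ± 0.27 (95% interval −0.61 to 0.69), with values from −0.42 to 0.48 on all arrays. RHO1 was at −0.04 ± 0.24 (95% interval −0.61 to 0.53). Neither was called.

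The Gas proteins are GPI-anchored enzymes that elongate beta-1,3-glucan, and 3 of their 5 genes fell, against 10.4% of all features. GAS1, the main one in vegetative cells, fell by 1.66 ± 0.31 on the log2 scale (3.16-fold, adjusted p = 0.0169), with −0.15, 0.13 and 0.69 without ethanol and −1.28, −1.38 and −1.65 with it. It was not called after scaling (−1.36, adjusted p = 0.0775) or quantile normalization (−1.42). GAS3 read −0.14, 0.03 and 1.00 against −0.82, −1.45 and −1.02, a change of −1.39 ± 0.38 (adjusted p = 0.0487). GAS5 read 0.12, 1.15 and 0.76 against −0.99, −0.01 and 0.14, a change of −0.96 ± 0.25 (adjusted p = 0.0428), and its groups overlapped. The calls of GAS3 and GAS5 were close to the threshold. With the replicate block the adjusted p was 0.0616 and 0.0885, and with the trend removed it was 0.0983 and 0.154. GAS2 and GAS4, which are known for spore wall assembly, were at −0.23 and 0.86 and were not called. GAS4 had the widest error of the set (SE 0.72), with ethanol arrays of 1.08, −1.51 and 1.01.

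Of 9 other glucan enzymes and related wall proteins 3 fell (33.3%, against 10.4% of all features) and none rose. UTR2, which with CRH1 links chitin to glucan, read 0.44, −0.09 and 0.20 in the 0% cultures and −0.87, −2.21 and −2.53 in ethanol. It fell by 2.05 ± 0.32 on the log2 scale, or 4.14-fold (adjusted p = 0.0120), with a smaller change on the swapped arrays (−1.31) than on the others (−2.42). CRH1 itself was at −0.40 ± 0.28 and was not called. SCW10, a soluble wall protein related to glucanases, fell from 0.18, 0.94 and 0.98 to −1.21, −0.36 and −0.92, by 1.53 ± 0.27 (adjusted p = 0.0147). TOS1, a covalently bound wall protein, went from −0.50, 0.41 and 0.36 to −1.04, −1.31 and −1.83. Its change was −1.48 ± 0.36 (adjusted p = 0.0353), or −1.98 with the trend removed (adjusted p = 0.0125), and its adjusted p was 0.0663 with the replicate block. The exoglucanases EXG1 and EXG2 were at −0.58 and 0.61, SCW4, a relative of SCW10, at −0.51 and the daughter-specific SCW11 at −0.44. BGL2, an abundant glucan-modifying enzyme of the wall, was at −0.08 ± 0.24 (95% interval −0.64 to 0.48), with all 6 arrays between −0.08 and 0.25. None of these was called.

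Of 4 genes of beta-1,6-glucan only KRE9, needed for its synthesis, fell (25.0%, against 10.4% of all features). It went from 0.16, 1.13 and 0.99 to −0.44, −0.10 and −0.20. The change lay between −0.60 on the swapped and −1.21 on the other arrays (adjusted p = 0.0408, or 0.0850 with the replicate block and 0.0660 with the trend removed). KRE1, a GPI protein of glucan assembly, was at −0.96 ± 0.35 without a call (adjusted p = 0.103). Its ethanol arrays read −1.32, 0.74 and 0.35, so that most of the difference lay on the swapped arrays (−1.69, against −0.60). KRE6, a glucan synthesis protein of the secretory pathway, was at 0.28, and KNH1, the homologue of KRE9, at 0.03.

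In chitin synthesis 1 of 6 genes fell and none rose. This is 16.7% called, close to the 18.1% of all features, where 10.4% fell. The lower gene was CHS1, the repair chitin synthase that acts at cell separation. It read 0.14, 1.14 and 0.75 without ethanol and −1.32, −0.77 and −0.39 with it. Its change was −1.51 ± 0.26, or 2.84-fold (adjusted p = 0.0148). CHS2, the synthase of the primary septum, was at −0.77 ± 0.37 (adjusted p = 0.187), with 0.46, −1.30 and −0.71 against 0.63, −2.21 and −2.26. Its change was 0.16 on the swapped and −1.23 on the other arrays, its dye term was called at −1.08, and with the trend removed it was called lower at −1.25 (adjusted p = 0.0380). CHS3, the synthase that makes most wall chitin, was at −0.03 ± 0.31 (95% interval −0.77 to 0.70). CHS5, CHS6 and CHS7, which move Chs3 through the secretory pathway, were at 0.09, 0.64 and −0.26. None of CHS3, CHS5, CHS6 and CHS7 was called. Other genes of the Chs3 route are among the further wall genes below. SKT5, also known as CHS4, rose by 1.20 ± 0.27 (adjusted p = 0.0282). Its adjusted p was 0.0631 with the replicate block and 0.0989 with the trend removed. BCH1 was lower, at −1.42 ± 0.24 (adjusted p = 0.0143), and BNI4, BUD7 and BCH2 were not called.

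The SUN family holds 4 related proteins of the wall and septum, and 2 of them fell by nearly the same amount. Of all features 10.4% fell. SIM1 read 0.47, 0.66 and 0.31 without ethanol and −1.58, −1.08 and −1.84 with it, a change of −1.98 ± 0.30 (3.93-fold, adjusted p = 0.0105). SUN4, which acts in septation, read 0.57, 0.96 and 0.72 against −1.16, −0.90 and −1.32, a change of −1.88 ± 0.26 (3.67-fold, adjusted p = 0.00881). The changes of SIM1 and SUN4 were alike in both dye orientations, between −2.04 and −1.73. UTH1 was at −0.60 ± 0.25 (adjusted p = 0.134), without overlap between groups, and NCA3 at 0.02 ± 0.63 with widely scattered 0% arrays of 0.79, −1.93 and 0.66.

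Among 5 genes of daughter cell separation CTS1 and DSE2 fell, against 10.4% of all features. With the probe-order trend removed both kept their call, and the median change of the 5 genes went from −0.65 to −0.28. CTS1, the chitinase that dissolves the septum, read 0.40, 0.56 and 0.34 without ethanol and −1.43, −1.24 and −1.83 with it. It fell by 1.94 ± 0.27 on the log2 scale, or 3.82-fold (95% interval −2.58 to −1.29, adjusted p = 0.00915). CTS1, TOS6 and CIS3 were the 3 genes that kept their call without the dye term (1.23% of all features called). DSE2, a daughter-specific secreted protein, read 0.42, 1.00 and 1.07 against −0.27, −0.37 and −0.24, a change of −1.12 ± 0.26 (adjusted p = 0.0314, and 0.0683 with the replicate block). EGT2, a wall protein made at the end of division, was at −0.65 and DSE4, the endoglucanase of separation, at −0.36. DSE1 had the opposite sign, at 0.71 ± 0.27 (adjusted p = 0.109), with −0.53 to 0.06 in the 0% and 0.38 to 0.62 in the ethanol cultures.

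The integrity pathway had 2 lower genes among 8, its factor Rlm1 and the sensor Wsc2, or 25.0% called against 18.1% of all features. RLM1 read −0.43, 3.42 and 2.98 without ethanol and −1.84, 1.10 and 1.12 with it. The 0% arrays of cultures 2 and 3 lay far above 0 although RNA of both cultures was in the pool, and the dye term of RLM1 was called at 1.64 (adjusted p = 0.00244). Within each dye orientation the ethanol arrays were lower, by −1.41 on the swapped and −2.09 on the other arrays, although the groups overlapped across orientations. The change was −1.87 ± 0.28 (3.64-fold, adjusted p = 0.0105), or −1.34 with the trend removed (adjusted p = 0.0288). It was not called after scaling of the arrays to equal spread (adjusted p = 0.0803) or against the pool alone.

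WSC2 read 0.41, 1.37 and 1.16 without ethanol and −2.28, −0.30 and 0.02 with it, a change of −1.83 ± 0.34 (3.56-fold, adjusted p = 0.0169). The other sensors were not called. WSC1 was at −0.16 ± 0.37 (95% interval −1.05 to 0.73), and MID2 at −0.88 ± 0.47 (adjusted p = 0.228) with ethanol arrays of −2.04, 0.60 and 0.81. In the kinase cascade PKC1, protein kinase C, was at 0.69 ± 0.33, BCK1 at 0.04 ± 0.44, MKK1 at 0.91 ± 0.32 (adjusted p = 0.0968) and the MAP kinase gene SLT2 at −0.71 ± 0.28 (adjusted p = 0.125). MKK1 was called higher once the trend was removed (1.28, adjusted p = 0.0398). The dye term was called for 5 of these 8 genes (62.5%), against 12 of all 59 (20.3%) and 34.0% of all features, and the pathway's median change was −1.02 on the swapped arrays and 0.07 on the others.

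**Figure D4:**
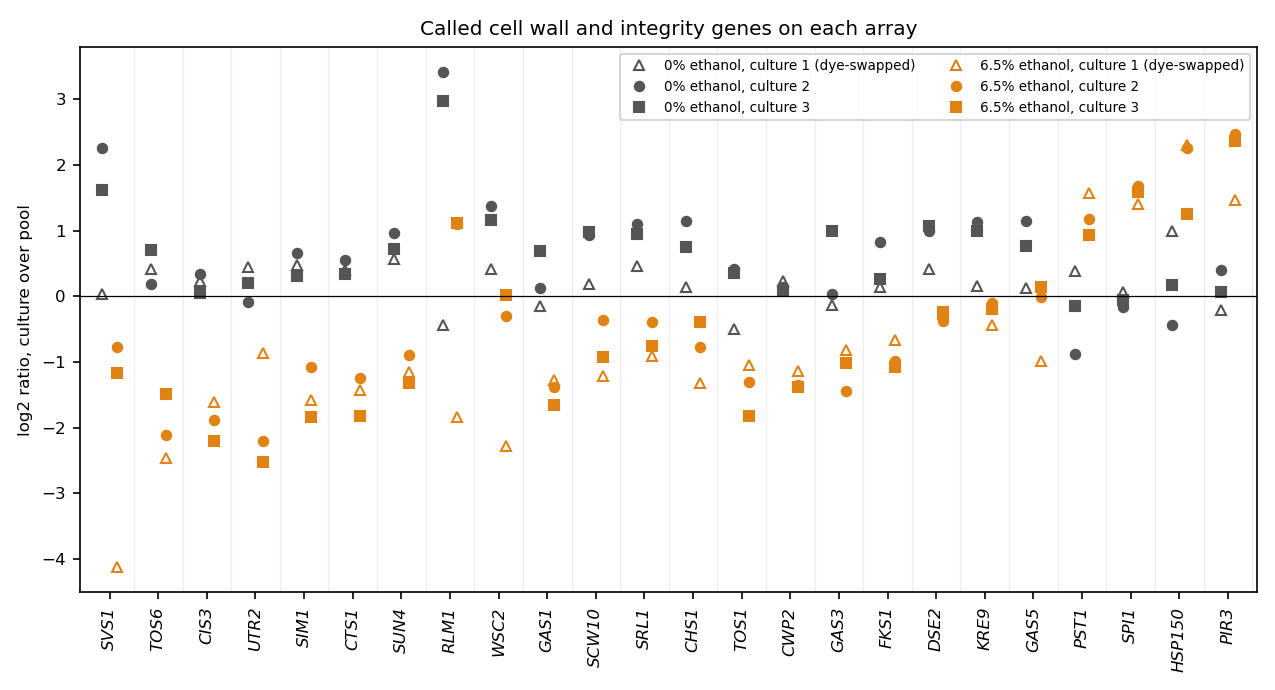
Log2 ratio of culture over pool (y axis) on each of the 6 arrays for the 24 called genes (x axis, ordered by change), grey for 0% and orange for 6.5% ethanol, with open triangles for the dye-swapped cultures. RLM1 and GAS5 are the 2 genes whose groups overlap.

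For 13 pairs of related genes the difference between the genes was taken within each array and compared between groups by an exact two-sided permutation test, whose smallest p with 3 against 3 arrays is 0.10, so that no pair could reach 0.05. The pairs were chosen with the values known. In 6 pairs every ethanol array lay beyond every other array (exact permutation p = 0.10, or 0.217 adjusted over the 13 pairs). The change of HSP150 lay 3.80 above that of CIS3 on the log2 scale, and that of PST1 2.15 above that of ECM33. The change of PIR3 lay 1.86 above that of PIR1. CRH1, at −0.40, lay 1.65 above UTR2, at −2.05. GSC2, at 0.04, lay 1.36 above FKS1, at −1.31. Their array differences were −0.22, −0.41 and −0.28 without ethanol and 0.26, 1.35 and 1.55 with it. CWP1, at −0.64, lay 0.80 above CWP2, at −1.44. The difference between SIM1 and SUN4 was −0.10, with overlapping arrays.

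Further genes of wall biology were taken from lists of general knowledge. Of 27 genes of the mannan outer chain and O-mannosylation 7 fell and none rose, 25.9% against 10.4% of all features that fell, with a median change of −0.64. The mannosyltransferase subunits MNN9 and VAN1 were at −2.24 ± 0.31 and −2.17 ± 0.28 (adjusted p = 0.00873 and 0.00803), and KTR6, which adds mannosylphosphate, at −2.13 ± 0.27 (adjusted p = 0.00803). With the trend removed 8 fell, among 473 of all 6345 features, and with the replicate block 4 did, among 357. Of 39 other wall and wall assembly genes 6 fell (15.4%, against 10.4% of all features) and 4 rose (10.3%, against 7.69%), with a median of 0.05. These included PRY3, a daughter-specific wall protein, at −2.20 ± 0.31 (adjusted p = 0.00916), CDA1, a chitin deacetylase of the spore wall, at 1.78 ± 0.36 (adjusted p = 0.0211), and YPS3, a GPI-anchored protease, at −1.69 ± 0.36 (adjusted p = 0.0246, or 0.0530 with the replicate block). With the block 3 fell and 1 rose (9.57% of all features called), and with the trend removed 6 and 1 (13.0%).

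In 22 other integrity genes 2 rose and 2 fell, 18.2% against 18.1% of all features. PKH1, a kinase upstream of Pkc1, rose by 1.49 ± 0.30 and ROM1, an exchange factor for Rho1, by 1.36 ± 0.24 (adjusted p = 0.0205 and 0.0158). The groups of ROM1 overlapped and its dye term was called at −0.98 (adjusted p = 0.00454). After scaling to equal spread neither was called (adjusted p = 0.151 for PKH1 and 0.0759 for ROM1). ZEO1, a regulator that binds Mid2, fell by 1.41 ± 0.24 on the log2 scale (adjusted p = 0.0146). With the trend removed PKH1 was no longer called (1.20, adjusted p = 0.0501). Of 4 genes of the chitin precursor UDP-N-acetylglucosamine limma called none, against 18.1% of all features. None had an unadjusted limma p below 0.05, against 2237 of all 6345 features. Without the dye term none was called either, where only 1.23% of all features were.

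Markers of the cell cycle were read in the same way. Of 12 markers of G1 and S phase 3 fell (25.0%, against 10.4% of all features), CLN2, a G1 cyclin, at −2.38 ± 0.32, RAD27, a replication nuclease, at −1.41 ± 0.26 and CDC21, thymidylate synthase, at −1.23 ± 0.27 (adjusted p = 0.00857, 0.0164 and 0.0258). Of 13 markers of G2, M and early G1, 2 fell (15.4%) and 1 rose (7.69%, as of all features): the mitotic cyclins CLB1 and CLB2 at −1.62 ± 0.29 and −1.09 ± 0.26, and RME1, a repressor of meiosis, at 1.09 ± 0.30 (adjusted p = 0.0162, 0.0316 and 0.0480). The calls of CDC21, CLB2 and RME1 ended with the block (adjusted p = 0.0598, 0.0679 and 0.0896) and with the trend removed (0.0658, 0.111 and 0.0626), which left 2 lower genes in the first list and 1 in the second. The medians of the 2 lists were −0.37 and −0.19. Their part in the lower wall genes was not tested.

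**Figure D5:**
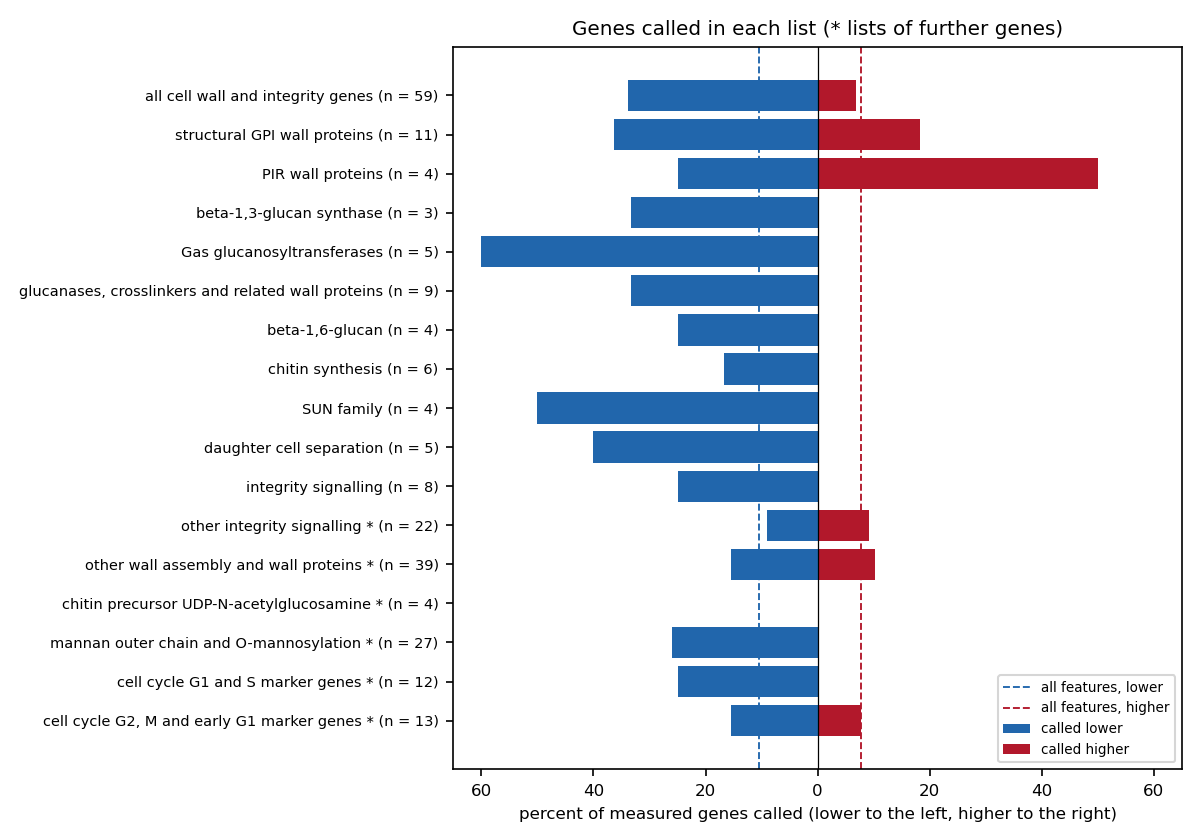
Percent of the measured genes of each list called lower (blue, to the left) and higher (red, to the right) in ethanol, with n in brackets. Dashed lines mark all features, at 10.4% lower and 7.69% higher. Lists marked with an asterisk hold further genes outside the set of 59, and many lists have few genes.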

How the data were processed

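Per the labels, RNA was labelled with AlexaFluor 647, read as red, or 555, read as green. The authors deposited log2 ratios of 6368 probes on 6 arrays. How they were scanned, background-corrected and normalized is not stated there, and signal over background is unknown. Dye-swapped arrays were multiplied by −1, and gene names came from the platform annotation, updated through RefSeq R64. Probes without a gene (695) stayed as features and probes of a gene were averaged. Changes were fitted with limma 3.58.1 in R 4.3.3, with ethanol and dye orientation as terms and 3 residual degrees of freedom. The fit was tested on simulated data.

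Named genes were all called genes and the largest change of each role, and of further lists up to 3 called genes, plus genes of the Chs3 route. Genes and lists were chosen with earlier results of these data known. Alternatives were no dye term, a replicate block, equal spread, quantile normalization, removal of the probe-order trend (lowess, span 0.1), the pool alone as control, probes at the limit left out, the strongest probe per gene, and each array left out. Same-numbered cultures deviated together from their group means (r = 0.702, 0.478 and 0.427 for numbers 1, 2 and 3). So did cultures 2 and 3 across numbers (0.511 and 0.421), which share a dye orientation, and after the dye term the correlation of same numbers was −0.0365. The labels do not say that numbers pair cultures, so values with the block stand beside the calls of named genes that it ends. The p-values measure the spread left after the ethanol and dye terms, between cultures of 1 parent with 1 array each. Culture, labelling and array cannot be told apart in it. One further gene list is not reported here.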

Additional observations from a re-analysis of the deposited data

How the results depend on the processing

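Of the 24 called genes 17 stayed called with the replicate block, 19 with the probe-order trend removed, 14 after scaling to equal spread and 3 without the dye term. With the block 17 genes of the set and 607 features were called (250 higher, 357 lower, 9.57% of all), and it changed no call of the set beyond the 7 lost by HSP150, FKS1, GAS3, GAS5, TOS1, KRE9 and DSE2. Without the dye term 3 genes of the set were called, 0 higher and 3 lower, among 78 features (37 higher, 41 lower). After scaling there were 14 (1 higher, 13 lower) among 307 features (104 and 203). After quantile normalization there were 17 (2 higher, 15 lower) among 484 features (166 and 318), and 7 of the 24 calls were lost. Against the pool alone there were 30 (8 higher, 22 lower) among 2542 features (1283 and 1259). As deposited 1150 features were called, 488 higher and 662 lower. The median of the 59 genes was −0.51 with the trend removed, when 13.0% of all features were called, and −0.31 against the pool alone. RLM1, GAS5, KRE9 and DSE2 lost their call against the pool alone. Their means, not adjusted for dye orientation, were 1.99, 0.68, 0.76 and 0.83 without ethanol and 0.12, −0.29, −0.25 and −0.29 with it. All 0% arrays of GAS5, KRE9 and DSE2 read above the pool, so that part of their change lay there. For RLM1, 0% culture 1 read −0.43 and cultures 2 and 3 read 3.42 and 2.98. The dye terms of RLM1 and GAS5 were called, at 1.64 and 0.47. With 1 array left out the set had from 0 to 25 called (0 to 4 higher, 0 to 21 lower), all features from 2 to 1253 (2 to 565 higher, 0 to 688 lower), and the median lay between −0.66 and −0.49. With signal over background unknown, dim probes could not be left out.

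No called gene changed sign under any alternative run. Genes without a call did, CCW14 with the largest change among them (−1.07). With the trend removed SED1 was at −0.14, RHO1 at 0.27, GAS2 at 0.02, KNH1 at −0.43, DSE4 at 0.02, WSC1 at 0.19 and the median of the glucan synthase genes at 0.04. Against the pool alone CCW12 was at −0.18, CCW14 at 0.22, GAS2 at 0.07, BGL2 at 0.00, CRH1 at 0.06, KNH1 at −0.17, CHS5 at −0.19, CHS7 at 0.12 and BCK1 at −0.13. After scaling and after quantile normalization PIR1 was at −0.14 and −0.06, CHS3 at 0.07 and 0.08, CHS5 at −0.01 and 0.00, and NCA3 at −0.43 and −0.32. With 1 array left out BCK1 ranged from −0.45 to 0.41, CCW12 from −0.22 to 0.43, CHS3 from −0.37 to 0.17, CHS5 from −0.09 to 0.47, DSE4 from −0.57 to 0.20, GSC2 from −0.13 to 0.23, KNH1 from −0.34 to 0.20, NCA3 from −0.69 to 0.79, RHO1 from −0.12 to 0.02, SED1 from −0.06 to 0.49 and WSC1 from −0.45 to 0.28, and the medians of the glucan synthase and integrity genes from −0.13 to 0.01 and −0.70 to 0.07. The cause was not tested.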
